A study of Mus musculus with 6 samples.

Results

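CXC chemokines are small secreted proteins that steer leukocytes, and 6 genes of this family, Cxcl1, Cxcl2, Cxcl3, Cxcl9, Cxcl10 and Cxcl16, were followed in dendritic cells stimulated with C5a. The members were the genes named by the RefSeq accession of a probe on the array, and 7 of its 56605 probes belonged to them. They made up 6 of the 46522 genes or unnamed transcripts that the array reported on. All 6 were measured well enough to be tested, among 4488 genes in all.

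The cells were C5aR+ LysoDCs, lysozyme-expressing phagocytes with dendritic cell traits that sit in the Peyer's patches of the mouse gut and here carried the receptor for C5a. In the C5a group, 3 samples received 100 nM recombinant C5a for 3 h. The other 3 samples were left without C5a (0 nM) and are called untreated, and the labels give no time in culture for them. Cells of both groups had been enriched by CD11c beads, sorted, and kept in medium with the growth factors CSF-1 (0.1 µg/mL) and CSF-2 (0.5 µg/mL, spelled CFS-2 in the labels). The sources used here do not give mouse strain, age, sex or genotype, nor whether the replicates were separate cell preparations, so p-values describe the spread between these samples, which may be technical. Each sample was read on its own 1-colour array, and all 6 arrays lay on 1 slide.

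The ligands fall into groups by the receptor they bind. CXCL1, CXCL2 and CXCL3 carry a Glu-Leu-Arg motif before their paired cysteines and draw neutrophils through CXCR2. CXCL9 and CXCL10 lack that motif and draw activated T cells and NK cells through CXCR3. CXCL16 is made as a membrane-bound protein that also takes up oxidised lipoproteins, can be shed by the proteases ADAM10 and ADAM17, and binds CXCR6. In phagocytes, transcription of Cxcl1, Cxcl2 and Cxcl3 is classically driven by NF-kB, while Cxcl9 and Cxcl10 respond to interferons. C5a is itself a strong attractant of neutrophils and phagocytes.

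The stretches upstream of 4 members are printed because the neutrophil-drawing ligands and Cxcl10 are the genes on which the results turn. RefSeq's promoter table for GRCm38.p6 held 5 of the 6 members, all on chromosome 5, and Cxcl16 was not among them. Each window is given 5′ to 3′ on the strand of its gene and counted in bases upstream of the annotated start of transcription. Capitals mark matches on either strand to the NF-kB consensus or, in Cxcl10 alone among these windows, also to the interferon response (ISRE-type) pattern GAAANNGAA, the first capital run of that window. The windows are chr5:90891125-90891224 (plus strand, bases 120 to 21) for Cxcl1, chr5:90903779-90903878 (plus strand, bases 120 to 21) for Cxcl2, chr5:90785981-90786080 (plus strand, bases 120 to 21) for Cxcl3 and chr5:92348980-92349109 (minus strand, bases 220 to 91) for Cxcl10.
Cxcl1: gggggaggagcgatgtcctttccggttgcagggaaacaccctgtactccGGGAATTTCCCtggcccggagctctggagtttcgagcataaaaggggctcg
Cxcl2: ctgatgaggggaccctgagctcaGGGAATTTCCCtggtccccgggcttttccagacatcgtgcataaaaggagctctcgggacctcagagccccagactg
Cxcl3: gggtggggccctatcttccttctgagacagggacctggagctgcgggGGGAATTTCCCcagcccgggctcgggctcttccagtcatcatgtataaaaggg
Cxcl10: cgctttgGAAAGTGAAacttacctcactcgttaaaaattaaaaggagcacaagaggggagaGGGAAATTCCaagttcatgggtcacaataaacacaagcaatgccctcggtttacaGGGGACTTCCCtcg

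The longest run of bases common to the 250 bases upstream of Cxcl1, Cxcl2 and Cxcl3 was GGGAATTTCCC, 11 bases long and beginning 71, 97 and 73 bases before their starts. It holds the NF-kB consensus on both strands, and these overlapping matches were counted as 1 place. The same 11 bases or their reverse complement occurred in 14 of 32851 promoters in the table (0.0426%) when the 250 bases upstream were searched. The run was taken from Cxcl1, Cxcl2 and Cxcl3, which are therefore among the 14, and nothing is concluded from the small share. The NF-kB consensus occurred in 7.25% of them and in 4 of the 5 members, at 1 place each in Cxcl1, Cxcl2 and Cxcl3 and at 2 places in Cxcl10, beginning 159 and 104 bases before the start. GAAANNGAA occurred in 7.13% of promoters and in 2 of the 5 members, Cxcl9 and Cxcl10, beginning 175 and 213 bases before the start. The consensus was not found in the 250 bases upstream of Cxcl9. A match is a description of these letters and not a measured binding site.

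**Figure D1:**
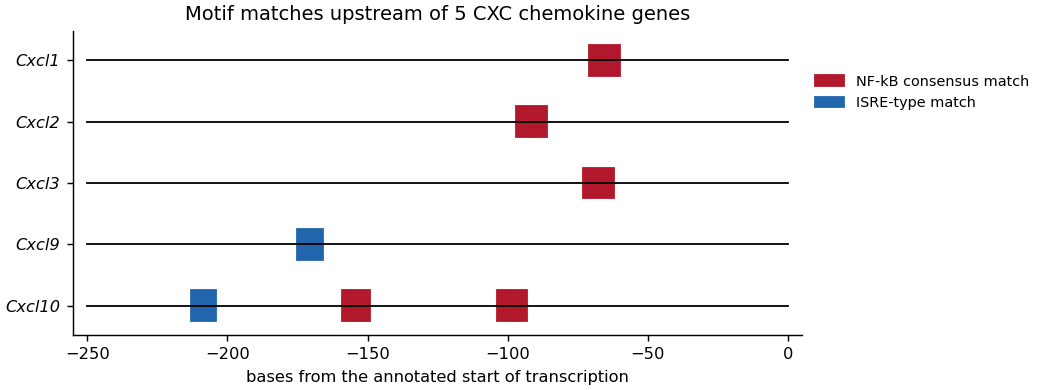
Positions of motif matches upstream of 5 CXC chemokine genes, with bases from the annotated start of transcription on the horizontal axis and 1 line per gene. Red boxes are matches to the NF-kB consensus, found in Cxcl1, Cxcl2, Cxcl3 and Cxcl10, and blue boxes are matches to the interferon response pattern, which begin 175 bases before the start of Cxcl9 and 213 bases before that of Cxcl10.

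The arrays were dim, and the samples were uneven. Of all probes, 3668 to 6651 were well above background on C5a arrays and 2727 to 6959 on untreated arrays. Number 2 was the brightest in both groups, with a 75th percentile of processed signal over commonly detected probes of 377 in C5a 2 and 460 in untreated 2, against 154 to 254 in the other C5a samples and 109 to 163 in the other untreated samples. Of the genes that identify the cells, Lyz1, Lyz2, Itgax (CD11c) and Csf1r were well above background on all 6 arrays, while Cx3cr1 and Mertk, listed with the macrophage and LysoDC markers, were on 0 arrays. Of 9 neutrophil markers with a probe, 8 were on 0 arrays, among them S100a8, S100a9 and Elane, and Csf3r was detected on all 6. All 5 T cell and all 6 epithelial markers with a probe were on 0 arrays. Of 6 B cell markers 4 were on 0 arrays, and Cd79b was detected on 2 C5a arrays and 1 untreated array. Of 8 endothelial and stromal markers 7 were on 0 arrays, and Pdpn was detected on all 6. The levels that follow are log2 processed signals minus the log2 75th percentile of the same array, and a level cannot be compared between genes, since each probe has its own brightness.

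For none of the 6 genes did a change with C5a pass the test. In limma with Benjamini-Hochberg adjustment over all genes, 0 of the 6 members had an adjusted p under 0.05 (adjusted p = 0.9992 for each), and neither had any other gene (0% called). At an unadjusted p under 0.05 there were 0 members, where 2.34% of all genes passed. With the replicate number as a block, which pairs each C5a sample with the untreated sample of its number, the count of members called was again 0 (0% of all genes, lowest adjusted p of a member 0.9259), and 0 members had an unadjusted p under 0.05, against 4.23% of all genes. Of the 6 log2 differences, C5a minus untreated, 4 were positive and 2 negative, with a median of 0.16, where the median of all genes was 0.04 and 54.9% were positive. The groups overlapped for all 6 members; they did not overlap for 5.68% of genes.

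**Figure D2:**
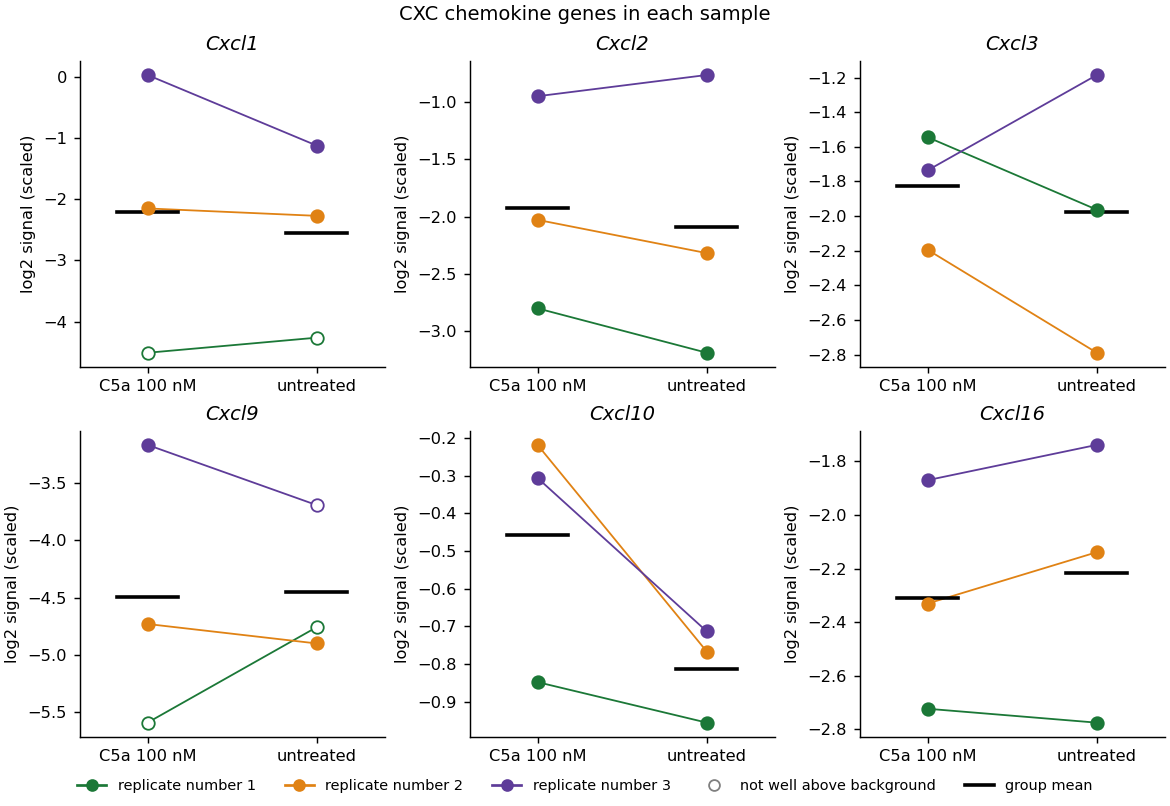
Scaled log2 signal of each CXC chemokine gene (vertical axes, which differ between panels) in C5a samples (left) and untreated samples (right), n = 3 per group, with lines joining samples of the same replicate number, black bars for group means and open points for arrays where the probe was not well above background. The groups overlap in all 6 panels, and for Cxcl1, Cxcl2 and Cxcl16 number 3 lies highest and number 1 lowest in both groups.

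Cxcl1, also known as KC, encodes a neutrophil attractant and showed the widest spread of the 6 genes. Its level was -4.51, -2.15 and 0.03 in C5a 1, 2 and 3, against -4.26, -2.27 and -1.12 in untreated 1, 2 and 3. Number 1 was low and number 3 high in both groups, so that the samples fell together by number and not by treatment. On both arrays of number 1 the probe was not well above background, with processed signals of 11.2 in C5a 1 and 8.53 in untreated 1, and the true level there may be lower than given. The other processed signals were 85.0 and 157.2 in C5a 2 and 3, and 95.2 and 49.9 in untreated 2 and 3. The mean was -2.21 ± 2.27 (SD, n = 3) with C5a and -2.55 ± 1.59 in untreated cells. The log2 difference was 0.34 (SE 1.22, 95% interval -2.53 to 3.22). With the replicate block the SE was 0.34 and the interval -0.55 to 1.23, which in fold terms runs from 0.684 to 2.35. The same-numbered pairs differed by -0.25, 0.12 and 1.16, so that number 3 alone held most of the difference, and the first pair compares arrays that both lay at background.

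Cxcl2, also known as MIP-2, encodes another CXCR2 ligand and was well above background on all 6 arrays. Its level was -2.80, -2.03 and -0.95 in C5a 1, 2 and 3, against -3.19, -2.32 and -0.77 in untreated 1, 2 and 3. Again number 3 was highest and number 1 lowest in both groups, and the groups covered nearly the same span. The mean was -1.93 ± 0.93 (SD, n = 3) with C5a and -2.09 ± 1.23 in untreated cells, a difference of 0.16 (SE 0.71). The replicate block reduced the SE to 0.23 and gave a 95% interval of -0.45 to 0.78, or 0.733-fold to 1.71-fold. The pairs differed by 0.39, 0.29 and -0.19, with C5a higher in 2 of 3.

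Cxcl3, the remaining neutrophil-drawing ligand, did not follow that order. Its upstream stretch holds the same 11-base run. Its level was -1.54, -2.19 and -1.74 in C5a 1, 2 and 3, against -1.96, -2.79 and -1.19 in untreated 1, 2 and 3. Number 2 was lowest in both groups, and the C5a values lay within the span of the untreated ones. The mean was -1.83 ± 0.33 (SD, n = 3) with C5a and -1.98 ± 0.80 in untreated cells, a difference of 0.15 (SE 0.44, or 0.31 with the block). The pairs differed by 0.42, 0.59 and -0.55.

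Cxcl10, also known as IP-10, encodes a CXCR3 ligand. Among the probes that stood for each member in the tests, its 6 values covered the narrowest span. Its level was -0.85, -0.22 and -0.31 in C5a 1, 2 and 3, against -0.96, -0.77 and -0.71 in untreated 1, 2 and 3. C5a 2 and 3 were above every untreated sample, while C5a 1 lay inside their span. The mean was -0.46 ± 0.34 (SD, n = 3) with C5a and -0.81 ± 0.13 in untreated cells. The difference of 0.36 (SE 0.28, 95% interval -0.31 to 1.02, limma unadjusted p = 0.2492) had the smallest p of the 6 members. With the block the SE was 0.22, the interval -0.22 to 0.93 and limma's unadjusted p 0.1721. C5a was higher in 3 of 3 pairs, by 0.11, 0.55 and 0.41, which was also so for 14.4% of all genes.

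Cxcl9, also known as MIG, encodes the other CXCR3 ligand and was barely detected. Its probe was well above background on C5a 2 and 3 and on untreated 2 alone. Processed signals were 5.26, 14.2 and 17.1 in C5a 1, 2 and 3, against 6.04, 15.4 and 8.40 in untreated 1, 2 and 3. Scaled, these gave -5.59, -4.73 and -3.17 with C5a and -4.76, -4.90 and -3.69 in untreated cells, a difference of -0.05 (SE 0.65, or 0.33 with the block). Number 3 had the highest scaled value in both groups, but untreated 3 was not well above background and its true level may be lower. The pairs differed by -0.83, 0.17 and 0.53. The first compares arrays that both lay at background, and the last rests on untreated 3 at background.

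Cxcl16 was represented by 2 probes, both well above background on all 6 arrays. The brighter probe (A_52_P99888) was at -2.72, -2.33 and -1.87 in C5a 1, 2 and 3, against -2.78, -2.14 and -1.74 in untreated 1, 2 and 3. The dimmer probe (A_51_P374198) was at -2.94, -2.91 and -2.53 with C5a and at -2.97, -2.76 and -2.33 in untreated cells. Both probes placed number 3 highest and number 1 lowest in both groups. In a fit over all 4958 kept probes, their differences were -0.09 (SE 0.38) and -0.10 (SE 0.29). The pairs of the brighter probe differed by 0.05, -0.19 and -0.13, the narrowest range of pair differences of any member. With the block its 95% interval was -0.64 to 0.46, or 0.642-fold to 1.37-fold.

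**Figure D3:**
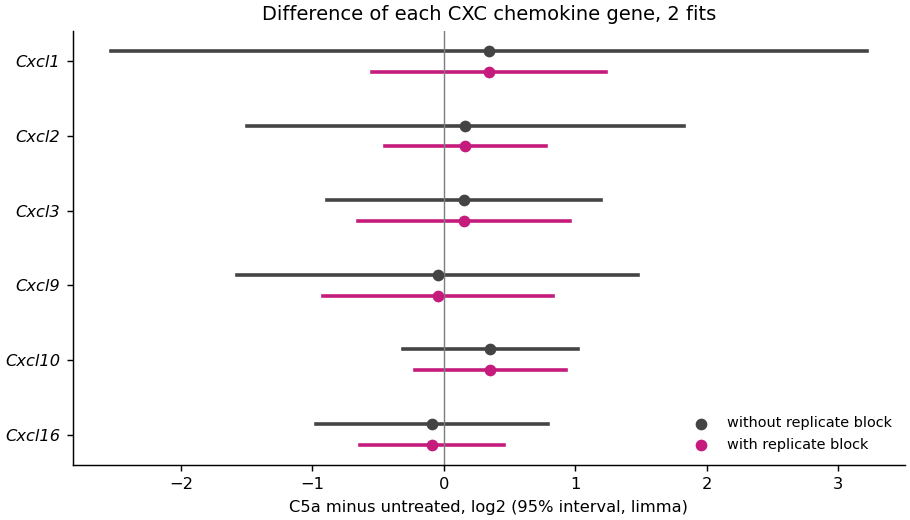
Log2 difference, C5a minus untreated, of each CXC chemokine gene (horizontal axis) with its 95% interval from limma, grey without and pink with the replicate number as a block (n = 3 per group). All intervals include 0, and the interval of Cxcl1 is -0.55 to 1.23 with the block and -2.53 to 3.22 without it.

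The levels were also compared by replicate number. Same-numbered samples of both groups deviated together across all genes, with correlations of deviations of 0.211, 0.269 and 0.384 for numbers 1, 2 and 3, against -0.252 to 0.0712 for unlike numbers. The block reduced the SE of all 6 members, from a median of 0.55 to 0.27, and of 92.4% of all genes, whose median SE was 0.37 without and 0.26 with it. The range of the mean levels of the 3 numbers was larger than the difference between C5a and untreated cells for 6 of 6 members and for 86.5% of all genes; a range of 3 means tends to exceed the gap between 2, and nothing is read from this share. Of the members well above background on all 6 arrays, the range was 2.13 for Cxcl2, 1.03 for Cxcl3, 0.95 for Cxcl16 and 0.41 for Cxcl10, where the median over all genes was 0.68. The measured range was 3.84 for Cxcl1 and 1.74 for Cxcl9, but both genes lay at background on both arrays of number 1, and they passed the filter on dim probes only through the numbers in which they were brighter. The lowest signal well above background on those arrays was taken as the level of number 1. With the scaling used here, Cxcl1 was then at least 11.6-fold higher in number 3 than in number 1 (3.54 on the log2 scale). This bound does not hold across processing. The measured log2 difference of Cxcl1 was 1.62 with normexp background correction and 3.44 with the percentile over all probes. Cxcl9 was detected on 1 of the 2 arrays of number 3, so its level there may be lower than measured and no bound is given. Between numbers 3 and 2, both detected for Cxcl1 on each array, its mean levels differed by 1.66.

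**Figure D4:**
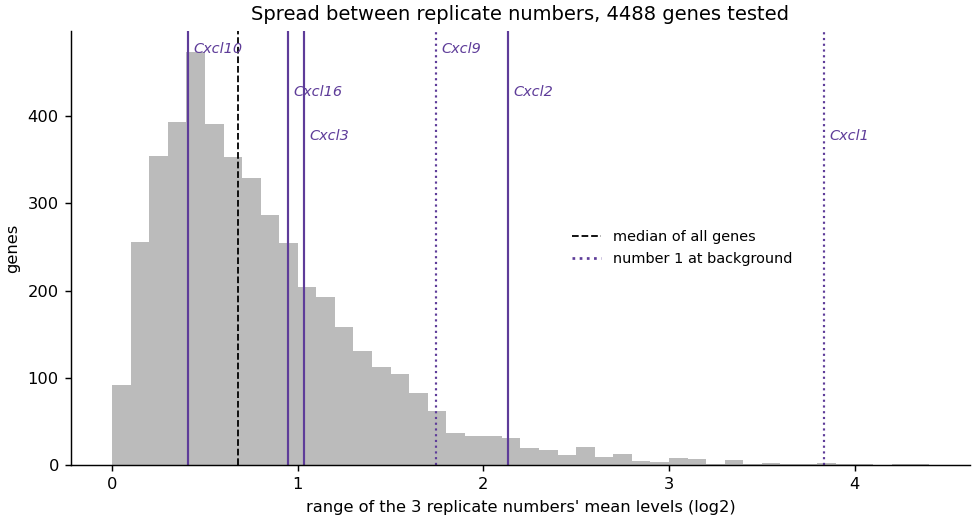
Histogram over 4488 genes of the range of the mean log2 levels of the 3 replicate numbers (horizontal axis, each mean over 1 C5a and 1 untreated sample), with purple lines at the CXC chemokine genes, dotted for Cxcl1 and Cxcl9, whose number 1 lay at background, and a dashed line at the median of 0.68. Cxcl2 at 2.13 lies in the right tail and Cxcl10 at 0.41 left of the median.

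The differences between numbers were tested in the blocked fit, and no member passed there either. In limma's F test with Benjamini-Hochberg adjustment over all genes, 0 of 6 members and 0% of all genes had an adjusted p under 0.05. Before adjustment, 2 of the 4 members well above background on all 6 arrays were under 0.05. The share of all genes was 17.8%, but it includes genes not well above background on every array. It is therefore not a like background for these 4 members, and no excess is read from it. In the blocked fit over all genes, the unadjusted p in limma's F test was 0.00234 for Cxcl2 and 0.0404 for Cxcl16, with an adjusted p of 0.1732 and 0.2661. Cxcl1 and Cxcl9 were also under 0.05, with an adjusted p of 0.1732 and 0.2513 in limma, but with number 1 at background these values do not bear on a measured difference and are given no weight. The other Cxcl16 probe had an unadjusted p of 0.2011 in this test over kept probes. Cxcl1, Cxcl2 and Cxcl16 had number 3 highest and number 1 lowest in both groups, an order found for 6.66% of all genes. That order was read from these members, so nothing is concluded from the 6.66%. Any order shared by both groups was found for 29.6% of all genes and, among the members, for these same genes alone. The count of members called depended on processing. With normexp background correction limma called 5 members between numbers (all but Cxcl10), but also 40.6% of all genes. Cxcl1 and Cxcl9 are limited there too by number 1 at background. Array brightness also differed by number, and its part in these values was not tested.

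The genes whose patterns over the 6 samples were most like each member were found among 1425 named genes well above background on all arrays, by the root mean square difference of mean-centred log2 levels. For Cxcl1 they were Ccr7, the receptor that guides dendritic cells to lymph nodes, Ccl3, a chemokine of the CC family, and Ccrl2, a non-signalling chemerin receptor, at 0.69, 0.80 and 0.83, where the median gene was at 1.64. For Cxcl2 they were Marcks, a membrane-bound substrate of protein kinase C, Lgmn, a lysosomal protease, and again Ccrl2, at 0.12, 0.18 and 0.23 against a median of 0.94. Cxcl9 was nearest to Tnfaip2 (0.17), Inhba (0.23), which encodes an activin subunit, and Spic (0.26), a macrophage transcription factor. The matches of Cxcl1 and Cxcl9 rest in part on values at background. These were both arrays of number 1 for each gene, and also untreated 3 for Cxcl9. Cxcl16 was nearest to Mapkapk2 (0.06), a kinase downstream of p38, Grn (0.10), which encodes progranulin, and Txnrd1 (0.10), a thioredoxin reductase. Cxcl10 was nearest to Aif1 (0.04), Ralgds (0.10) and Taok1 (0.13), and Cxcl3 to Wrn (0.21), Wfdc17 (0.21) and Scaf1 (0.23).

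Ccr7 was at -1.82, -0.77 and 0.50 in C5a 1, 2 and 3, against -2.22, -0.76 and 0.84 in untreated 1, 2 and 3. Like Cxcl1, it was lowest in number 1 and highest in number 3 of both groups. Ccr7 was also the 1 tested gene of a list of 7 conventional dendritic cell markers, of which Flt3, Zbtb46, Xcr1, Clec9a and Cd209a were on 0 arrays. The summed linear level of that list ran from 0.49 to 1.56 in C5a and from 0.497 to 2.07 in untreated samples. With Ccr7 its only tested gene, and picked here for its likeness to Cxcl1, this sum is no separate measure of conventional dendritic cells. Whether differing shares of such cells move with the chemokine levels was not tested, and in RNA from bulk cells fewer cells of a type cannot be told apart from less RNA per cell.

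Other genes of the CXC system were mostly dark on these arrays. Of 8 other CXC ligands with a probe, Cxcl5, Cxcl12, Cxcl13, Cxcl15, Cxcl17 and Ppbp were well above background on 0 arrays. Pf4, the platelet chemokine, differed by 0.25 (SE 0.41) and Cxcl14 by -0.15 (SE 1.02), each detected on some arrays of both groups. All 8 receptors searched, Cxcr1 to Cxcr6, Ackr1 and Ackr3, were on 0 arrays, the genes of CXCR2, CXCR3 and CXCR6 among them. Of the genes tied to CXCL16 shedding, Adam10 differed by -0.10 (SE 0.27) and Rhbdf2, which escorts ADAM17 to the surface, by 0.08 (SE 0.53). Adam10 was well above background on 2 C5a arrays and 1 untreated array, so its difference rests in part on values at background.

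The regulators that classically drive these chemokines gave no call either. Of 8 tested genes of NF-kB and its feedback, 0 passed limma's test between C5a and untreated cells over all genes, with or without the block, and 4 differences were positive and 4 negative (median -0.05). Tnfaip3, the NF-kB inhibitor A20, had the smallest p, with a difference of -1.35 (SE 0.68), followed by Nfkbie at -0.15 (SE 0.25) and Nfkb2 at -0.32 (SE 0.56). Between numbers, 4 of these 8 had an unadjusted p under 0.05, against 17.8% of all genes, and 0 passed after adjustment. Of 13 tested genes of the interferon pathway, 0 passed and 8 differences were positive (median 0.11), with Jak1, a kinase of interferon receptors, at 0.81 (SE 0.63), the receptor chain gene Ifnar2 at 0.43 (SE 0.43) and Isg15, an interferon-induced ubiquitin-like protein, at -0.31 (SE 0.41). Jak1 and Ifnar2 were well above background on 1 untreated array each.

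Chemokine mRNAs of the Cxcl1 group carry AU-rich elements that speed their decay, and genes of that machinery formed the last list. Of 7 tested, 0 passed limma's test over all genes, and 4 differences were positive (median 0.27). Zfp36, which encodes tristetraprolin, a protein that binds such elements, differed by 1.31 (SE 0.51, limma unadjusted p = 0.0371, adjusted p = 0.9992). Its groups did not overlap, as for 5.68% of all genes, and it was at background on 2 of the 3 untreated arrays and on C5a 1. Zfp36l2, a relative of tristetraprolin, differed by 0.66 (SE 0.44), and Khsrp, a decay-promoting RNA-binding protein, by -1.38 (SE 1.18). Khsrp was at -6.78, -2.18 and -2.24 in C5a 1, 2 and 3, against -2.50, -2.61 and -1.94 in untreated 1, 2 and 3. Its difference rests on C5a 1, where it was not well above background, and the other pairs differed by 0.44 and -0.29.

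**Figure D5:**
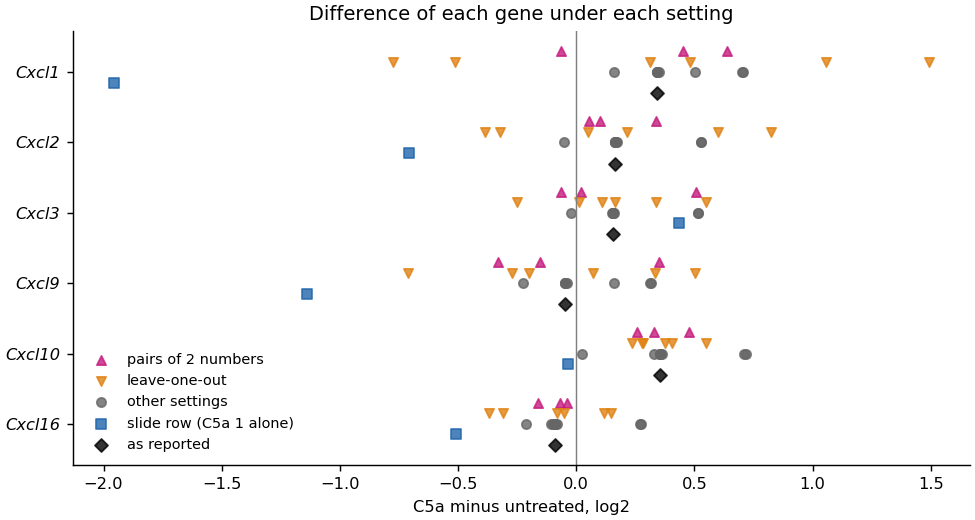
Log2 difference, C5a minus untreated, of each CXC chemokine gene (horizontal axis) as reported (black diamonds), over the pairs of 2 of the 3 numbers (pink triangles), with 1 sample left out and no block (orange triangles), with the slide row as a covariate (blue squares, C5a 1 as the lone C5a array) and under the other settings tried (grey circles). Apart from the slide row, Cxcl10 stays above 0 and the other genes have values on both sides of 0.

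The sign of the difference depended on single samples for most members. Leaving out 1 sample without the block left its number in 1 group only, and Cxcl1 was then at -0.78 without C5a 3 and at -0.51 without untreated 1, and Cxcl2 at -0.32 and -0.38. When both samples of a number were left out and the block was kept, an alternative chosen after seeing the data, these shifts were smaller. Cxcl1 was then at 0.64 without number 1, 0.45 without number 2 and -0.063 without number 3. Cxcl2 was positive each time, from 0.052 to 0.34, and Cxcl16 negative each time, from -0.16 to -0.040. Cxcl3 turned to -0.066 without number 2, and Cxcl9 to 0.35 without number 1.

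Cxcl10 had a positive difference without each sample in turn, from 0.24 to 0.55, and over the pairs of 2 numbers, from 0.26 to 0.48. Its size moved with the processing, to 0.023 with normexp and to 0.72 with the percentile over all probes, where the median gene was at -0.12 and 0.40.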

How the data were processed

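Per the file headers, arrays were read with Agilent Feature Extraction 10.10.1.1. The authors' deposited scanner files give spot intensity, including a background-subtracted processed signal, and flags for spots well above background. Spots marked as outliers were left out unless all of a probe's were, and no spot was saturated. The deposited series table holds log2 values, which differed by at most 0.02 from log2 processed signal minus the 75th percentile of all probes on that array, both centred per probe; its per-probe baseline stays unknown. Its column medians were 0.01, -0.02 and 0.22 for C5a 1 to 3 and 0.17, -0.08 and 0.18 for untreated 1 to 3.

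Log2 signals were scaled by the 75th percentile, per array, of the 2370 probes detected above background on every array. Probes well above background on at least 3 arrays were kept, and the brightest kept probe stood for a gene. Groups were compared with limma 3.58.1 in R 4.3.3 (lmFit, eBayes), as C5a minus untreated, tested on simulated data. Numbers in the titles were taken as pairs because every same-numbered correlation of deviations exceeded 0.1. The fit without the block is the main one. RefSeq accessions were matched to GRCm38.p6 for 32994 of 56605 probes. The array design cites another build, so no gene coordinates are given beyond the promoter windows. Motifs were searched on both strands and chosen with these windows in view.

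Members and gene lists were chosen with earlier results of these data known. Named genes were the members, the 3 smallest p of each context list, and the 3 genes most like each member. Alternatives covered scaling, background correction, filters, probe choice, the deposited table, blocks and leaving out each sample. The number of arrays limits the precision.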

Additional observations from a re-analysis of the deposited data

How the results depend on the processing

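No CXC chemokine gene was called between C5a and untreated cells under any of the 16 alternatives, or with the block over the pairs of 2 numbers (limma, Benjamini-Hochberg), and the counts over all genes stayed at 0 except without a filter on dim probes (47 called). The replicate block changed no call (190 genes at an unadjusted p under 0.05, against 105 without it). Signs turned as follows, and the cause was not tested. With the slide row as a covariate the differences were -1.96 for Cxcl1, -0.71 for Cxcl2 and -0.036 for Cxcl10, but C5a 1 is then the lone C5a array set against the untreated ones, so these values say nothing on stability. With the block and both samples of a number left out, an alternative chosen after seeing the data, Cxcl1 was at -0.063 without number 3, Cxcl3 at -0.066 without number 2 and Cxcl9 at 0.35 without number 1. With normexp they were -0.051 for Cxcl2 and -0.022 for Cxcl3. With the percentile over all probes Cxcl9 was at 0.32 and Cxcl16 at 0.27, and in the deposited table both were at 0.31 and 0.27. Quantile normalization put Cxcl9 at 0.16. The scaling over all probes moved the median gene to 0.40, against 0.04 as reported, so Cxcl9 and Cxcl16 remained below the median gene there. Leaving out each sample in turn gave -0.78 to 1.49 for Cxcl1, -0.38 to 0.83 for Cxcl2, -0.25 to 0.55 for Cxcl3, -0.71 to 0.50 for Cxcl9, 0.24 to 0.55 for Cxcl10 and -0.37 to 0.15 for Cxcl16. Between replicate numbers, 0 genes and 0 members were called as reported. The counts were 2102 genes (46.8%) and 2 of 6 members (Cxcl1, Cxcl2) with the percentile over all probes, 2106 (46.9%) and 2 of 6 in the deposited table, 1824 (40.6%) and 5 of 6 with normexp, 34628 of 46522 (74.4%) and 3 of 6 (Cxcl1, Cxcl2, Cxcl9) without a filter, and 17 (0.779%) and 1 of the 4 members tested (Cxcl2) for probes well above background on all 6 arrays. Leaving out each sample gave 0 to 24 genes (at most 0.535%) and 0 to 1 members, the 1 being Cxcl1 without untreated 3; a number left with 1 sample is assumed to vary like the others. Cxcl1 and Cxcl2 were higher in number 3 than in number 1 under each setting with 6 arrays in which they were measured. The dim signals of Cxcl9, and of Cxcl1 in number 1, limit what can be said of them.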
